A study of Mus musculus with 9 samples.

Results

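The genes described here are 10 chemokine and chemokine receptor genes grouped under the recruitment of eosinophils and type 2 helper T cells (Th2 cells) into allergic tissue. The 10 genes are Ccl11, Ccl24, Ccl17, Ccl22, Ccl2, Ccl7, Ccl9, Ccr3, Ccr4 and Ccr8. Not all act on those cells alone: Ccl2 and Ccl7 draw monocytes, and Ccl9 acts through Ccr1. The probe sets of the 10 genes were found by gene symbol, as those that the platform annotation assigns to exactly 1 gene. Each of the 10 had 1 such probe set, and they make up 10 of the 19938 genes measured this way. RNA came from the nasal mucosa of BALB/c mice, an inbred strain, in a model of allergic rhinitis, and was measured on 9 Affymetrix Mouse Gene 1.0 ST arrays, 3 per group. The control group was sensitised and challenged with saline. The OVA group was sensitised and challenged with ovalbumin, the model allergen from hen egg white, and killed 2 hours after its final challenge. The 4-week group received ovalbumin in the same way and was killed 4 weeks after its final challenge. All 3 groups are labelled as male mice of 6 to 8 weeks kept free of specific pathogens; dose and route are not in the labels used here. The labels do not say whether each array holds 1 animal or a pool, so the p-values refer to the spread between samples alone, part or all of which may be technical.

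Values are log2 expression as deposited, with no zero and no detection call, so a low value is not evidence of absence. The level of one probe set is not set against that of another as an amount of RNA. The array medians lay between 6.38 and 6.45, and replicate arrays correlated over all genes at 0.986 to 0.992. Markers of the tissue were measured on all arrays: the olfactory neuron gene Omp lay between 11.47 and 12.43 and the nasal secretory gene Bpifa1 between 12.37 and 13.14. Without detection calls these levels check the tissue label only loosely. Of 5 olfactory and 6 respiratory and gland genes 0 had a limma adjusted p under 0.05 in OVA against control, with 1 and 0 at an unadjusted p under 0.05. At 4 weeks against control the olfactory gene Gnal fell by 0.44 on the log2 scale (limma adjusted p = 0.0349; up to 0.112 without control replicates 2 or 3, any 1 OVA replicate or 4-week replicates 2 or 3, and 0.0639 after median centring). The endothelial genes Cdh5 (0.46, adjusted p = 0.00789) and Pecam1 (0.34, adjusted p = 0.0306; up to 0.0939 without control replicates 1 or 3 or 4-week replicates 1 or 2) rose at 4 weeks against control, and the Cdh5 call held in every fit. Alb, a liver and plasma gene, fell against control in OVA mice (−1.13, adjusted p = 0.0160; 0.0582 without control replicate 2 and 0.0602 without OVA replicate 1) and at 4 weeks (−1.29, adjusted p = 0.00261). The part of these tissue genes in the results against control, Ccl9 included, was not tested. The sex label went against the data in 1 group. Xist, the RNA of the inactive X chromosome, was at 10.62, 10.70 and 11.11 on the arrays labelled control and between 4.22 and 4.42 on the other 6, and the Y-linked genes Eif2s3y, Uty and Kdm5d showed the opposite arrangement. In each comparison with the arrays labelled control, ovalbumin treatment and this sex pattern therefore cannot be told apart; the comparison of the 4-week with the OVA group does not use those arrays for its difference.

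Chemokines are small secreted proteins that guide leukocytes through G protein-coupled receptors. The eotaxins Ccl11 and Ccl24 act through Ccr3, the defining chemokine receptor of eosinophils. Ccl17 and Ccl22 are made by dendritic cells and macrophages under IL-4 and IL-13 and act through Ccr4 on Th2 cells, while Ccr8 marks a subset of Th2 and regulatory T cells. Ccl2 and Ccl7 draw monocytes through Ccr2, and Ccl7 can also engage Ccr3. Ccl9 is a mouse chemokine for Ccr1 made by myeloid cells and some epithelia. In allergic airways STAT6, the transcription factor downstream of IL-4 and IL-13, is known to drive eotaxin and Ccl17 genes, and NF-kappaB and AP-1 drive many inflammatory chemokines.

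RefSeq promoter windows (GRCm38.p6, 250 bases before to 50 after the start) were held for 6 of the 10 genes: Ccl17, Ccl22, Ccl9, Ccr3, Ccr4 and Ccr8. The Ccl9 sequence is shown because Ccl9 is the gene among the 10 that passed the test. It is the 250 bases before the start, chr11:83578637-83578886 on the minus strand, 5′ to 3′, and the capitals mark matches to the TATA box letters TATAAA on either strand and to the AP-1 letters TGANTCA.
Ccl9: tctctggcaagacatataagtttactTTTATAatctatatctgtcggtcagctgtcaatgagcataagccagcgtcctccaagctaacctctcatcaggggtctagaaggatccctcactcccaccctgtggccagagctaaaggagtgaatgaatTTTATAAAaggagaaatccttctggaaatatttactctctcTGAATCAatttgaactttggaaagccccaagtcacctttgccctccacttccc
The AP-1 match lies 53 to 47 bases before the start. The TATA box letters lie 92 to 87 bases before it on the gene's strand, overlapping a match on the other strand at 94 to 89, with a further match on the other strand at 224 to 219. Of 32851 windows of this length, 7.81% hold the AP-1 letters and 13.6% the TATA box letters.

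The remaining matches in the windows are shown with their neighbouring bases, 30 bases in all, because they are the letters of factors named above. The capitals mark the match: the STAT6 letters at chr8:94810289-94810318 on the plus strand, the NF-kappaB letters at chr9:124021782-124021811 and the AP-1 letters at chr9:124021816-124021845, both on the plus strand, and the AP-1 letters at chr9:114496669-114496698 on the minus strand.
Ccl17, STAT6: cgagtgaccaTTCTCTGGAAagccacaaac
Ccr3, NF-kappaB: ttccttaagaGGAAATTCCCacattgtttt
Ccr3, AP-1: cagtctgtccaTGAGTCAatgattattggg
Ccr4, AP-1: gtttggggaaaTGAGTCActcagctttttt
The STAT6 motif, searched as TTC and GAA with 4 free bases between, lies 154 to 145 bases before the start of Ccl17, and 6.95% of all windows hold it. The NF-kappaB motif lies 179 to 170 bases before the start of Ccr3, on the other strand, and 0.411% of windows hold it. In Ccr3 and Ccr4 the AP-1 letters lie 144 to 138 and 143 to 137 bases before the start. These windows of Ccl17, Ccr3 and Ccr4 lie inside the span of a longer RefSeq gene record. The windows of Ccl22 and Ccr8 held none of these letters. A match is a description of letters, and no binding was measured here.

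Among the 10 genes, Ccl9 was higher in the OVA and the 4-week group than on the arrays labelled control. Those arrays also differ in the sex pattern, which cannot be told apart from ovalbumin treatment here. The OVA call of Ccl9 was lost in 5 of 9 fits that leave out an array, and the 4-week call in 0. The eotaxin genes and Ccr3 had their highest values in the OVA group without passing the test. A gene is said to pass, rise or fall where its Benjamini-Hochberg adjusted p in limma, a linear model with moderated variances fitted to all 23410 named probe sets, was under 0.05. Against control, rise and fall describe a difference from arrays that also carry the other sex pattern. In OVA against control 1 of the 10 passed, Ccl9, where 1.30% of all probe sets passed. In 4-week against OVA 0 of the 10 passed in limma, where 6.33% of all did. In 4-week against control 1 of the 10 passed, again Ccl9, where 14.4% of all did. At an unadjusted p under 0.05 in limma there were 3, 4 and 1 of the 10 in the same 3 comparisons, in this order. Of all probe sets 16.4%, 23.9% and 32.9% did so. The shares of both kinds, adjusted and unadjusted, are to be read beside the counts of every list below. The median log2 change of the 10 was 0.46 in OVA against control, −0.27 in 4-week against OVA and −0.04 in 4-week against control, beside −0.02, −0.02 and −0.04 over all probe sets tested. The first comparison and the second share the OVA arrays, so their opposite medians are not independent of each other.

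**Figure D1:**
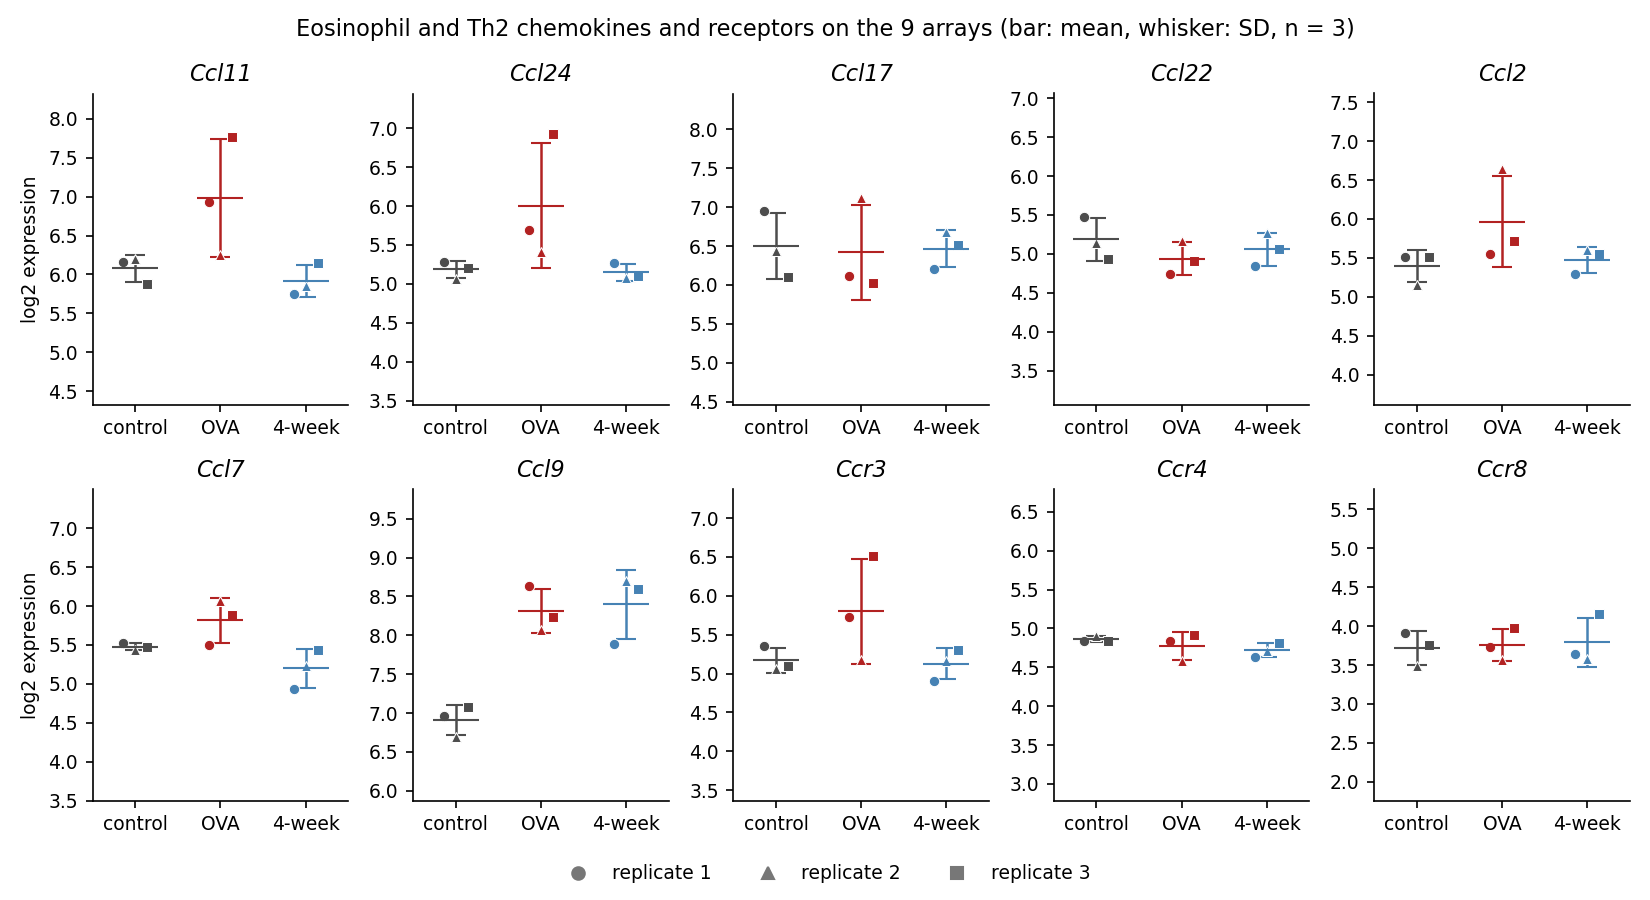
Log2 expression (vertical axis, each gene on its own range of equal length) of the 10 genes in the control, OVA and 4-week groups; symbols are the 3 replicates, bars the group mean and whiskers the SD (n = 3). Ccl9 lies at 7.89 or above on all 6 arrays of ovalbumin-treated mice and at or below 7.08 on the control arrays, while Ccl11, Ccl24 and Ccr3 spread widely within the OVA group.

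Ccl9 was the clearest of the 10. Its log2 values (probe set 10389214) were 6.96, 6.70 and 7.08 in the control group, 8.63, 8.07 and 8.24 in the OVA group and 7.89, 8.70 and 8.60 in the 4-week group. All 6 arrays of ovalbumin-treated mice lay above all 3 control arrays, and the OVA and 4-week groups overlapped. Against control, Ccl9 was 2.64-fold higher in OVA mice (a log2 change of 1.40, SE 0.22, with n = 3 per group and a limma adjusted p = 0.0241) and 2.80-fold higher in the 4-week group (1.48, SE 0.22, adjusted p = 0.00531). The 4-week and OVA groups differed by 0.08 on the log2 scale, with a 95% interval from −0.42 to 0.59 (0.747-fold to 1.51-fold, adjusted p = 0.854). The interval leaves room for a change of either sign, smaller in size than the difference from control.

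The 4-week call of Ccl9 held with any 1 array left out, with an adjusted p between 0.00453 and 0.0236. The OVA call did not hold without control replicate 1 (adjusted p = 0.0616), control replicate 2 (0.113), control replicate 3 (0.0575), OVA replicate 1 (0.0855) or OVA replicate 3 (0.0739), although the log2 change stayed between 1.24 and 1.52. Both calls compare with the arrays labelled control and so carry the sex pattern described above. Ccr1, the receptor of Ccl9, was at 4.01, 4.37 and 3.96 in control, 5.11, 4.46 and 4.94 in OVA and 4.39, 4.39 and 4.23 in 4-week mice. All 3 OVA values of Ccr1 lay above all control values; the log2 difference was 0.73 (SE 0.17, adjusted p = 0.0818) and passed without OVA replicate 2 (0.91, adjusted p = 0.0310).

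The neighbours of Ccl9 on chromosome 11 did not share one pattern. In the RefSeq order Ccl5, Ccl9, Ccl6, Ccl3 and Ccl4 lie side by side. Ccl6, named for its position after its values were seen, was at 7.94, 6.23 and 8.90 in the OVA group and between 6.39 and 6.75 in the 4-week group. Ccl3 was at 7.01, 6.64 and 7.26 in the OVA group and between 5.63 and 6.10 in the 4-week group. All 4-week values of Ccl3 thus lay below all its OVA values, and those of Ccl6 below OVA replicates 1 and 3, while those of Ccl9 overlapped with its OVA values. Neither Ccl3 nor Ccl6 passed in 4-week against OVA (adjusted p = 0.0525 and 0.283). Ccl4 was at 4.74, 4.83 and 4.60 in the OVA group and 4.57, 4.51 and 4.73 in the 4-week group, which overlap. Ccl5 was at 6.32, 6.20 and 6.37 in the OVA group and, lower by a narrow margin, at 6.02, 6.16 and 6.16 in the 4-week group. Ccl4 and Ccl5 did not pass in this contrast either (limma adjusted p = 0.448 and 0.480). The difference between genes was not tested. The genes whose centred values over the 9 arrays lay nearest those of Ccl9, out of 19937 others, were an immunoglobulin kappa variable segment (root mean square difference 0.293 on the log2 scale), Sox11, a transcription factor of immature neurons (0.299), and Mgat4a, a glycosyltransferase (0.348).

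The eotaxin genes had their highest values in the OVA group, on 1 array above all. Ccl11 (probe set 10379524) was at 6.16, 6.20 and 5.88 in control, 6.93, 6.25 and 7.76 in OVA and 5.75, 5.86 and 6.15 in 4-week mice. OVA replicate 3 was the highest array, OVA replicate 2 was level with the top of the control group, and the OVA values still did not overlap with either other group. The log2 difference from control was 0.90 (1.87-fold, SE 0.31, 95% interval 0.19 to 1.61, adjusted p = 0.205). From OVA to 4 weeks it was −1.06 (2.09-fold, SE 0.31, interval −1.77 to −0.355, adjusted p = 0.0813). Neither passed; without OVA replicate 2 the second did, at −1.43 (adjusted p = 0.0271), and the first was 1.27 (adjusted p = 0.0623). Without OVA replicate 3, the highest array, the differences were 0.51 (adjusted p = 0.326) and −0.67 (adjusted p = 0.152).

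Ccl24, the other eotaxin (probe set 10534493), was at 5.28, 5.06 and 5.20 in control, 5.69, 5.41 and 6.92 in OVA and 5.27, 5.07 and 5.10 in 4-week mice. As with Ccl11, OVA replicate 3 was highest and replicate 2 lowest of its group, and all OVA values lay above all others. The log2 difference from control was 0.82 (1.77-fold, SE 0.32, interval 0.10 to 1.55, adjusted p = 0.256). From OVA to 4 weeks it was −0.86 (1.81-fold, interval −1.58 to −0.13, adjusted p = 0.147). Without OVA replicate 3 these were 0.36 (adjusted p = 0.224) and −0.40 (adjusted p = 0.128). The 4-week and control groups differed by −0.16 for Ccl11 (interval −0.87 to 0.55) and by −0.04 for Ccl24 (−0.76 to 0.69). These intervals end below the OVA estimates of 0.90 and 0.82, which did not pass and are themselves uncertain. They include the OVA differences without OVA replicate 3, 0.51 and 0.36, and differences of either sign. Whether either gene returned to the control level is thus not settled by these arrays.

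Ccr3, the eotaxin receptor, was at 5.36, 5.06 and 5.10 in control, 5.73, 5.17 and 6.51 in OVA and 4.91, 5.17 and 5.30 in 4-week mice. Replicates 3 and 1 of the OVA group were the highest of the 9 arrays, and replicate 2 lay among the control values. The log2 difference from control was 0.63 (1.55-fold, SE 0.28, adjusted p = 0.312) and from OVA to 4 weeks −0.68 (interval −1.32 to −0.04, adjusted p = 0.187). Without OVA replicate 2 these were 0.95 (adjusted p = 0.114) and −0.99 (adjusted p = 0.0639), and without OVA replicate 3 they were 0.28 (adjusted p = 0.533) and −0.32 (adjusted p = 0.415).

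Ccl11, Ccl24 and Ccr3 ordered the OVA arrays alike: replicate 3 highest, replicate 1 next and replicate 2 lowest. Ccr4 and Ccr8 had the same order, with smaller spreads of 0.34 and 0.41, so it was not particular to the eotaxins and their receptor. The share of all genes with this order was not counted. The spread within the OVA group was 1.51 for Ccl11, 1.51 for Ccl24 and 1.34 for Ccr3 on the log2 scale. Of 19937 genes, Ccr3 was the nearest to Ccl11 over the 9 arrays (root mean square difference 0.196), followed by Kng1, a kininogen, and Mrc1, the mannose receptor of macrophages (both 0.197). Ccr3 was the fourth nearest to Ccl24, after Tubb4a, Gzmb and Pla2g4c. The genes nearest to Ccr3 were Gzmb and Gzma, granzymes of cytotoxic lymphocytes, and between them Cd209e, a C-type lectin gene. The 9 arrays share their groups and normalization, and these distances are descriptions.

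**Figure D2:**
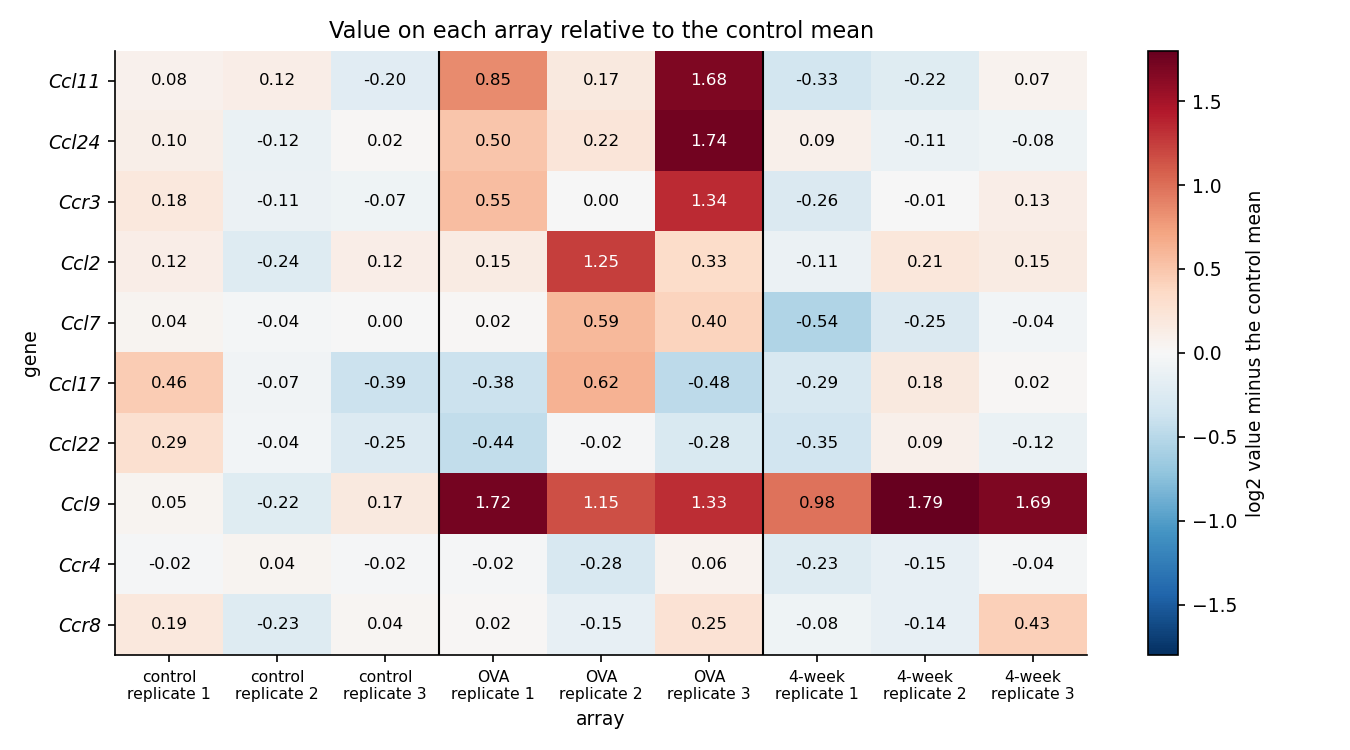
Log2 value of each gene on each array minus the mean of the 3 control arrays (colour scale and printed value); columns are the 9 arrays by group and replicate. In the OVA group Ccl11, Ccl24, Ccr3, Ccr4 and Ccr8 are highest on replicate 3, and Ccl2, Ccl7, Ccl17 and Ccl22 on replicate 2. Ccl9 is above the control mean on all 6 arrays of ovalbumin-treated mice.

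The summed level of the eosinophil markers overlapped between the groups, while the single genes leaned one way without passing. In OVA against control 6 of 6 measured genes had a change above 0 (median 0.18). In 4-week against OVA 0 of 6 did (median −0.28). The median over all probe sets was −0.02 in both. Of 8 genes on the list 6 were measured (Siglecf, Epx, Prg2, Ear6, Il5ra and Cd300a), and 0 passed in any of the 3 contrasts in limma, with 0, 1 and 1 at an unadjusted p under 0.05. Prg2, the major basic protein of eosinophil granules, was at 6.34, 6.72 and 6.20 in control, 7.11, 6.15 and 6.62 in OVA and 6.81, 5.55 and 5.70 in 4-week mice. The summed linear level of the list was 258 to 319.5 in control, 257 to 384 in OVA and 224 to 331 in 4-week mice. Of the 6, Cd300a, an inhibitory receptor of several myeloid cells, was lower on all 4-week arrays than on all others, at 5.86, 5.89 and 6.01, and did not pass. In bulk tissue, fewer cells of a type and less RNA per cell cannot be told apart.

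The summed mast cell and basophil, T cell and dendritic cell lists ordered the OVA arrays as the eotaxins did, with replicate 3 highest and replicate 2 lowest. The eosinophil, monocyte and macrophage, and neutrophil lists did not: they were highest on replicate 1 and lowest on replicate 2. The eosinophil sums were 384, 257 and 352 on OVA replicates 1, 2 and 3. The T cell sums were 396, 366 and 471 and the dendritic cell sums 378, 327 and 394 on OVA replicates 1, 2 and 3. The summed level of the mast cell and basophil list was 267 to 310.0 in control, 1110.2, 356 and 1422 on OVA replicates 1, 2 and 3, and 392 to 483 in the 4-week group. Mcpt1, a mast cell protease on the list, was at 9.37, 5.98 and 9.95 in the OVA group and 3.83 to 5.08 in control (log2 difference 4.12, adjusted p = 0.0659). On OVA replicates 1 and 3 this 1 gene made up most of the linear sum. The median log2 change of the 9 genes in OVA against control was 0.42, with 8 above 0. Of the 9 genes of that list 0 passed in OVA against control in limma, with 6 at an unadjusted p under 0.05. Mrc1 was at 7.21, 6.51 and 8.10 in the OVA group and at 6.55, 6.23 and 5.75 in control (1.10, adjusted p = 0.182), and 0 of 9 monocyte and macrophage genes passed in limma in any contrast, with 5, 5 and 1 at an unadjusted p under 0.05. The summed monocyte and macrophage level was 1138 to 2483 in control, 1818 to 2480.4 in OVA and 2110.3 to 2910.5 in 4-week mice. Between 4-week and control mice, Kit of that mast cell list rose (0.56, adjusted p = 0.0411, lost without any 1 control replicate, OVA replicate 2 or 4-week replicates 2 or 3, up to 0.118) and Mcpt8 fell (−0.46, adjusted p = 0.0225, lost without control replicates 2 or 3 or 4-week replicates 2 or 3, up to 0.0777, and after quantile normalization, 0.0930). The part of these cell types in the eotaxin values was not tested.

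**Figure D3:**
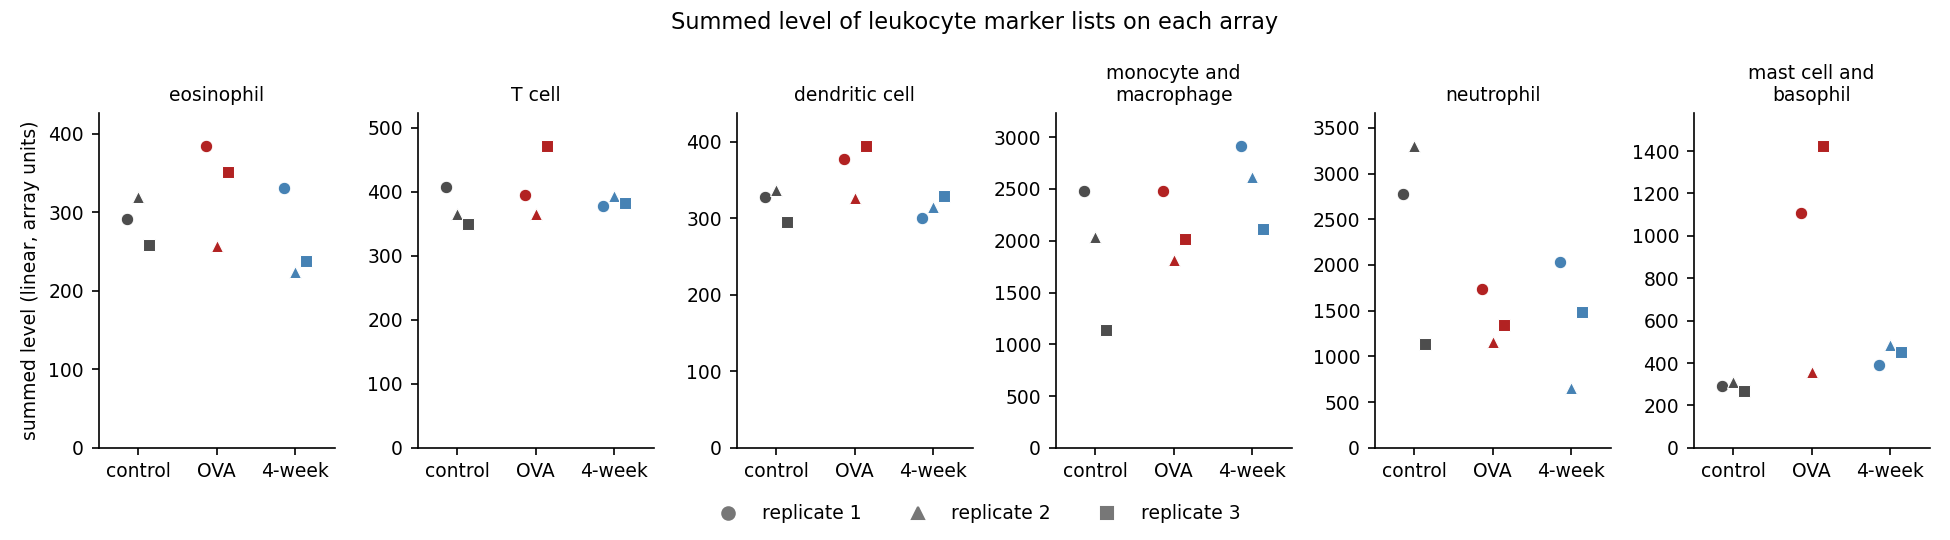
Summed linear level (array units, vertical axis from 0) of 6 leukocyte marker lists on each array, by group; symbols are replicates. The mast cell and basophil list is high on OVA replicates 1 and 3, where Mcpt1 makes up most of the sum, and not on replicate 2. The T cell and dendritic cell lists have the same order of OVA arrays, as do Ccl11, Ccl24 and Ccr3. The eosinophil, monocyte and macrophage, and neutrophil lists are highest on OVA replicate 1. The summed eosinophil list overlaps between groups.

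The monocyte chemokines ordered the OVA arrays differently. Ccl2 was at 5.51, 5.16 and 5.51 in control, 5.54, 6.64 and 5.72 in OVA and 5.29, 5.60 and 5.54 in 4-week mice. OVA replicate 2 stood above the other 8 arrays, and the lowest OVA value lay just above the highest control value. The log2 difference from control was 0.57 (1.49-fold, SE 0.25, adjusted p = 0.306), or 0.24 without OVA replicate 2, and from OVA to 4 weeks −0.49 (adjusted p = 0.279). The nearest genes to Ccl2 were Rhbdf1, Nfkbiz, a regulator of NF-kappaB target genes, and Gbp5, an interferon-induced GTPase (differences 0.145, 0.147 and 0.168), all highest on OVA replicate 2.

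Ccl7 came closest to the threshold among the 9 genes that did not pass. It was at 5.52, 5.44 and 5.48 in control, 5.50, 6.07 and 5.88 in OVA and 4.94, 5.23 and 5.43 in 4-week mice. All 4-week values lay below all OVA values and below all control values, the latter by a narrow margin. The log2 difference from OVA to 4 weeks was −0.62 (1.53-fold, SE 0.16, interval −0.97 to −0.26, adjusted p = 0.0520). It passed without OVA replicate 1 (−0.77, adjusted p = 0.0276), and the call also changed with the scaling and the variance model. The difference between OVA and control was 0.34 (interval −0.02 to 0.69, adjusted p = 0.327) and between 4-week and control −0.28 (adjusted p = 0.245). The genes nearest to Ccl7 were Snord22, Tarm1 and Nod2, an intracellular receptor for bacterial wall fragments.

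Ccl2, Ccl7 and Ccl11 are direct neighbours on chromosome 11, followed by Ccl12, Ccl8 and Ccl1 in the RefSeq order. Ccl8, which acts on Ccr8 in mice and was singled out after its values were seen, was at 5.48, 4.57 and 4.14 in control, 8.03, 5.35 and 8.20 in OVA and between 5.29 and 5.46 in 4-week mice. It was high on OVA replicates 1 and 3, as Ccl11 was, and not on replicate 2, where Ccl2 and Ccl7 were highest (log2 difference from control 2.47, SE 0.67, adjusted p = 0.122). Ccl1, the other ligand of Ccr8, ranged from 4.66 to 4.95 over the 9 arrays.

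Over the 10 genes, the OVA values of Ccl11, Ccl24, Ccl2 and Ccl9 lay above all control values, 4 of 10, where 10.4% of all probe sets did so. The 4-week values of Ccl11, Ccl24 and Ccl7 lay below all OVA values, 3 of 10, where 13.7% of all probe sets did so. In 4-week against control, Ccl9 lay above and Ccl7 and Ccr4 below without overlap, 3 of 10, where 35.0% of probe sets did not overlap in either direction, a share near that of the 10.

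**Figure D4:**
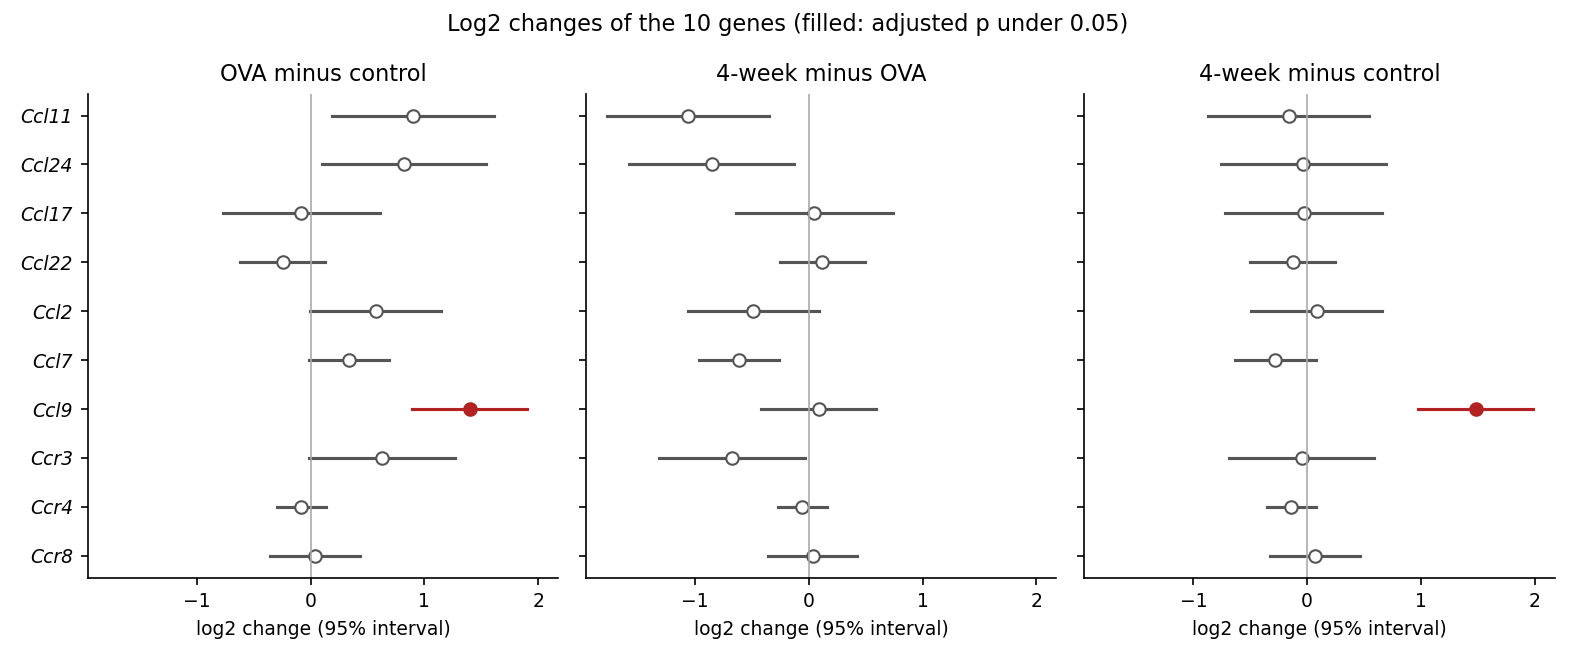
Log2 change (horizontal axis) of each of the 10 genes in the 3 contrasts; points are estimates, lines 95% intervals from limma, and filled points have an adjusted p under 0.05. Only Ccl9 is filled, in both contrasts against control. The intervals of Ccr4, whose mean lay at percentile 19.6 of the probe sets tested, are the narrowest.

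The Th2 chemokines and their receptors showed no shift that these arrays could resolve. Ccl17 was at 6.95, 6.43 and 6.11 in control, 6.11, 7.12 and 6.02 in OVA and 6.20, 6.68 and 6.52 in 4-week mice. The 3 groups overlapped fully, and the highest and the lowest of the 9 values were both in the OVA group. The log2 difference between OVA and control was −0.08 (interval −0.77 to 0.61, adjusted p = 0.924), between 4-week and OVA 0.05 (−0.64 to 0.74, adjusted p = 0.942) and between 4-week and control −0.03 (−0.72 to 0.66, adjusted p = 0.954). Each interval includes a difference as large as that of Ccl2 between OVA and control. The genes nearest to Ccl17 were Serpina1c, Slc34a2, a phosphate transporter of epithelia, and Ocm, and Ccl22 was the tenth nearest.

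Ccl22 was at 5.48, 5.14 and 4.94 in control, 4.75, 5.17 and 4.91 in OVA and 4.84, 5.27 and 5.06 in 4-week mice. The groups overlapped, with control replicate 1 the highest array. The log2 difference between OVA and control was −0.25 (interval −0.62 to 0.13, adjusted p = 0.496), and between 4-week and OVA 0.12 (−0.26 to 0.49, adjusted p = 0.707). Ccl17 and Ccl22 lie on either side of Cx3cl1 on chromosome 8, and both were highest on replicate 2 within the OVA and the 4-week groups.

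Ccr4, their receptor, was at 4.84, 4.90 and 4.84 in control, 4.84, 4.58 and 4.92 in OVA and 4.63, 4.71 and 4.82 in 4-week mice. Its intervals were the narrowest of the 10, from −0.30 to 0.13 for OVA against control (adjusted p = 0.717) and from −0.27 to 0.16 for 4-week against OVA (adjusted p = 0.757). Ccr8 was at 3.91, 3.49 and 3.76 in control, 3.74, 3.57 and 3.97 in OVA and 3.64, 3.58 and 4.15 in 4-week mice. Its differences were 0.04 (−0.36 to 0.43, adjusted p = 0.935) and 0.03 (−0.36 to 0.43, adjusted p = 0.933). Neither receptor varied by as much as 1 on the log2 scale over the 9 arrays. The means of Ccr4 and Ccr8 lay at percentiles 19.6 and 7.2 of the probe sets tested. Without detection calls, a narrow interval at so low a signal does not show that the gene was unchanged.

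T cell and dendritic cell markers were measured beside them. Of 10 T cell genes 0 passed in limma in any contrast, with 0, 2 and 0 at an unadjusted p under 0.05, and their summed level was 349 to 408 in control, 366 to 471 in OVA and 377 to 394 in 4-week mice. Of 7 dendritic cell genes 0 passed in limma in OVA against control and in 4-week against OVA, with 1 at an unadjusted p under 0.05 in each. Their summed level was 296 to 338 in control, 327 to 394 in OVA and 300.1 to 329 in 4-week mice. Between 4-week and control mice Zbtb46, a transcription factor of conventional dendritic cells, fell by 0.28 (adjusted p = 0.0471), a call lost with any 1 array left out but 4-week replicate 1 (up to 0.138) and after quantile normalization or median centring (0.177 and 0.131).

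The rest of the chemokine family gave a frame for these values. Of 31 further chemokines 29 were measured. Where 1.30% of all probe sets passed in OVA against control, 1 of the 29 rose and 0 fell. That was Cxcl16, a membrane-bound chemokine for Cxcr6 on T cells, at 6.25, 5.98 and 5.94 in control, 7.33, 7.22 and 7.38 in OVA and 6.65, 6.79 and 6.86 in 4-week mice. The 3 groups of Cxcl16 did not overlap. It was 2.39-fold higher in OVA than in control (log2 change 1.26, SE 0.10, adjusted p = 0.00171) and still 1.64-fold higher at 4 weeks (0.71, adjusted p = 0.00407).

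In 4-week against OVA 3 of the 29 fell and 0 rose, where 6.33% of all probe sets passed. Cxcl16 was 1.46-fold lower (−0.54, adjusted p = 0.0188), a call lost without OVA replicate 3, 4-week replicate 1 or 4-week replicate 2 (adjusted p up to 0.0712). The epithelial chemokine Ccl20 (−2.19, adjusted p = 0.0397) and the neutrophil chemokine Cxcl2 (−2.14, adjusted p = 0.0344) also fell. Both of these calls were lost when only the compared groups were fitted (limma adjusted p = 0.0931 and 0.0873). That of Ccl20 was also lost when every row was tested (0.0533). The Ccl20 call was lost with any 1 array left out but OVA replicate 1 (adjusted p up to 0.138; fold 3.33 to 7.48), and the Cxcl2 call without control replicates 1 or 2, OVA replicate 3 or any 1 of the 4-week replicates (up to 0.0884), with a fold of 2.75 without OVA replicate 2. Between 4-week and control mice Ccl25 fell by 0.30 on the log2 scale (adjusted p = 0.0411), a call lost with any 1 array left out but 4-week replicate 3 and after quantile normalization or median centring (adjusted p up to 0.126 and 0.0814), and −0.17 (adjusted p = 0.181) over the mean of its probe sets. The median log2 change of the 29 was 0.04 in OVA against control and −0.21 in 4-week against OVA. At an unadjusted p under 0.05 in limma there were 9, 8 and 5 of the 29 in the 3 contrasts.

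Several of the other chemokines had large differences between OVA and control without passing. Ccl20 had a log2 difference of 2.49 between OVA and control (adjusted p = 0.0585) and Cxcl2 2.15 (adjusted p = 0.0727). Ccl3 had 1.31 (adjusted p = 0.0626), Cxcl5 0.89 (adjusted p = 0.107) and Cxcl1 1.18 (adjusted p = 0.113). Cxcl5 passed without control replicate 1 (1.17, adjusted p = 0.0269). Cxcl1 was at 6.08, 7.52 and 6.69 and Cxcl2 at 6.07, 8.21 and 6.30 on the OVA arrays. Both were thus highest on replicate 2, the array on which Ccl2 and Ccl7 were highest and Ccl11, Ccl24 and Ccr3 lowest. Of 7 neutrophil genes 1, the receptor gene Csf3r, rose after ovalbumin (1.03, adjusted p = 0.0443) and fell by 4 weeks (−1.02, adjusted p = 0.0212). The first call was lost with any 1 array left out but control replicate 1 (up to 0.148), the second without any 1 OVA replicate or 4-week replicates 1 or 2 (up to 0.0756). The first was also lost with the compared groups only (0.0957), with every row tested (0.0810) and with the replicate block (0.0623). The list as a whole did not go that way: its median log2 change after ovalbumin was −0.32, with 2 of 7 genes above 0. The summed neutrophil level was 1135 to 3296 in control, 1156 to 1734 in OVA and 654 to 2030.0 in 4-week mice.

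**Figure D5:**
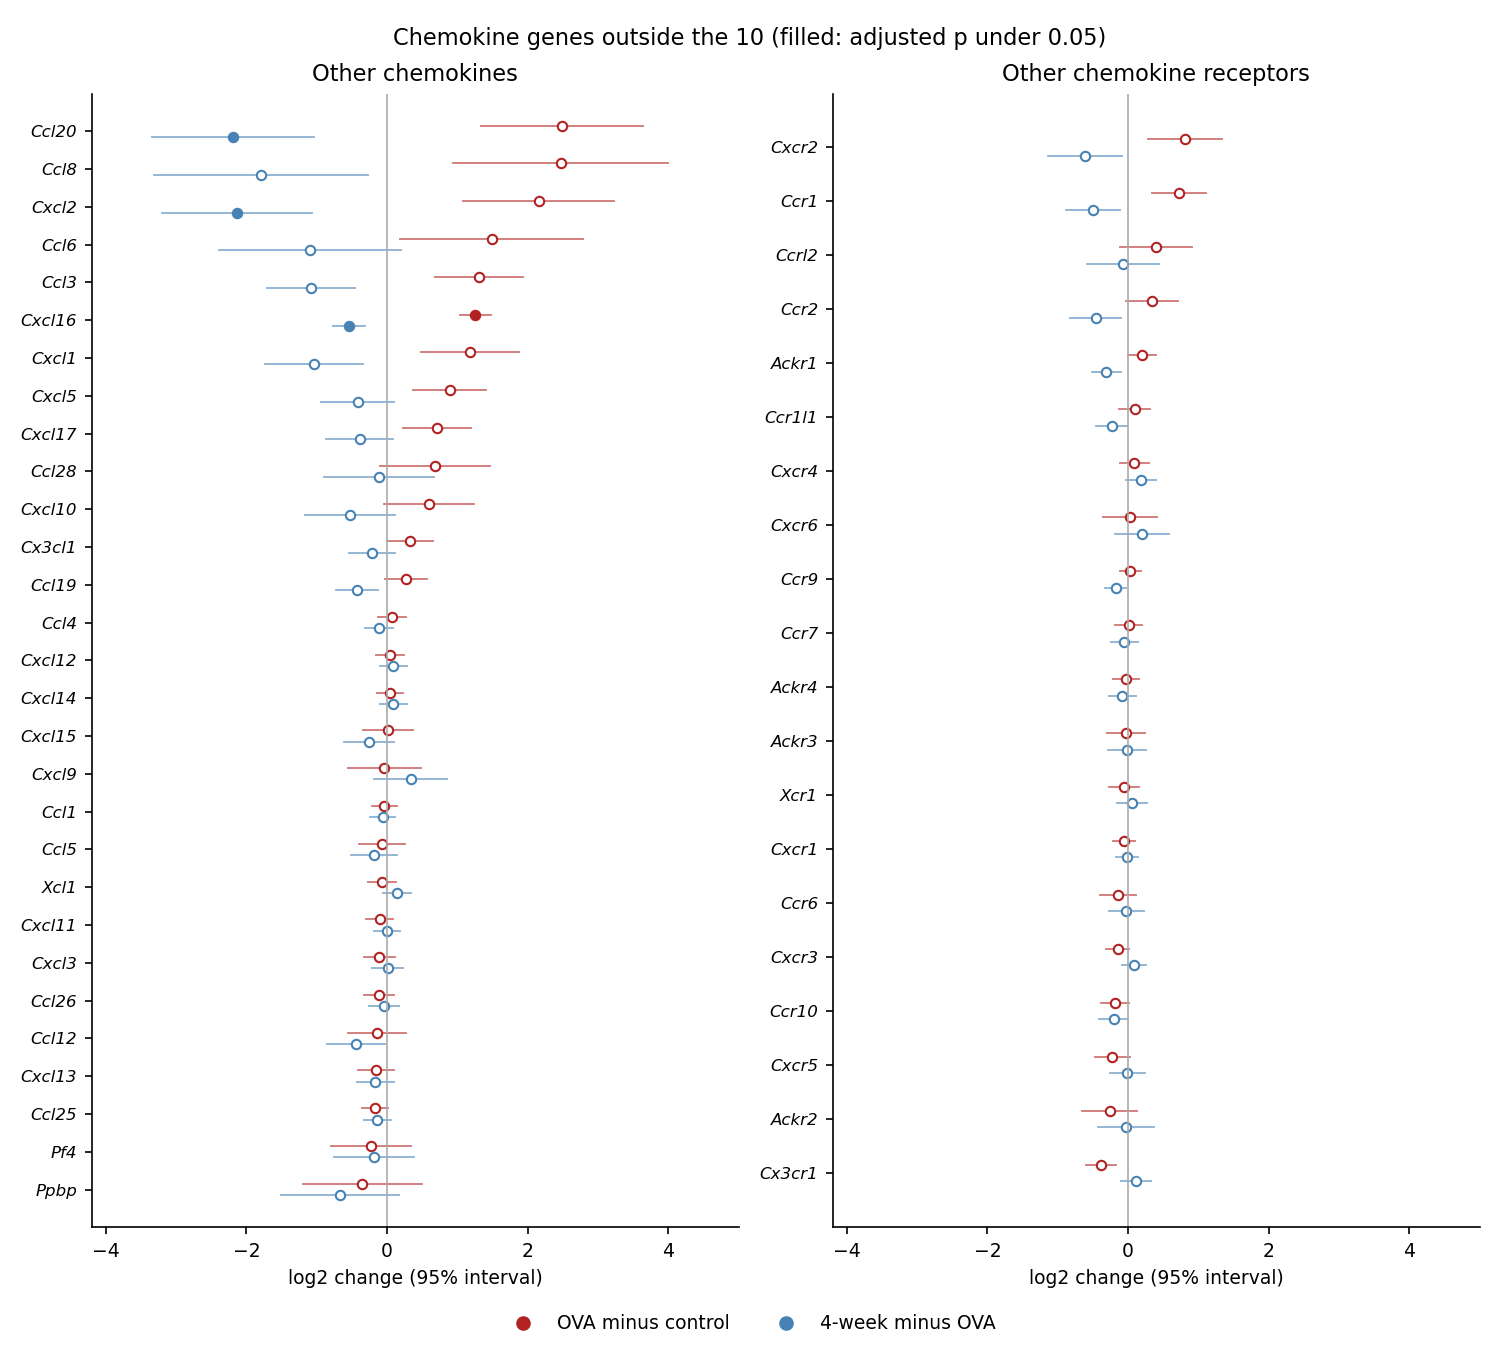
Log2 change (horizontal axis) of the 29 other chemokines and 20 other receptors, ordered by their OVA minus control change; points are estimates, lines 95% intervals, and filled points have an adjusted p under 0.05. Cxcl16 is the only gene filled in OVA minus control, and Ccl20, Cxcl2 and Cxcl16 are filled in 4-week minus OVA.

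Of 21 further receptors 20 were measured, and 0 passed in OVA against control or in 4-week against OVA in limma, with 3 and 7 at an unadjusted p under 0.05. Cxcr2, the neutrophil receptor, had a log2 difference of 0.81 between OVA and control (adjusted p = 0.137), and Cx3cr1, a receptor of resident macrophages, −0.39 (adjusted p = 0.0947). In 4-week against control Ccr10 fell by 0.39 (adjusted p = 0.0232), a call lost without any 1 control replicate, without 4-week replicates 1 or 3 (adjusted p up to 0.0634) and after either rescaling (0.0664 and 0.0506). The median of the 20 was −0.01 in OVA against control and −0.04 in 4-week against OVA.

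Of 23 genes upstream of these chemokines (type 2 and inflammatory cytokines, their receptors and transducers), 21 were measured. After ovalbumin 2 rose and 0 fell, where 1.30% of all probe sets passed. At an unadjusted p under 0.05 in limma there were 7, 6 and 6 of the 21 in the 3 contrasts. Il1b, an inflammatory cytokine, was at 6.09, 5.59 and 5.30 in control, 7.68, 8.33 and 7.55 in OVA and 6.98, 7.41 and 7.25 in 4-week mice. It was 4.57-fold higher in OVA (log2 change 2.19, SE 0.24, adjusted p = 0.00764) and 2.93-fold higher at 4 weeks (1.55, adjusted p = 0.00624) than in control, and, like Ccl9, all of its values after ovalbumin lay above all control values. Cish, a feedback inhibitor of STAT5 signalling, rose 1.98-fold (0.98, adjusted p = 0.0260) and was 1.77-fold lower at 4 weeks than in OVA (−0.82, adjusted p = 0.0235).

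The first Cish call was lost without control replicates 1 or 3 or OVA replicates 2 or 3 (adjusted p up to 0.0863). It was also lost when every row was tested (0.0556) and when only the compared groups were fitted (0.0817). The second was lost without OVA replicates 2 or 3 or any 1 of the 4-week replicates (up to 0.0802). Il13ra1, a receptor chain for IL-13, was higher at 4 weeks than in control (0.62, adjusted p = 0.0112).

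Il4 and Il13, the cytokines upstream of the eotaxins and Ccl17, did not pass, and neither did Il5. Between OVA and control the log2 difference was 0.08 for Il4 (interval −0.23 to 0.38, adjusted p = 0.825), −0.02 for Il5 (−0.27 to 0.23, adjusted p = 0.941) and 0.30 for Il13 (−0.02 to 0.62, adjusted p = 0.337). Il13 was at 5.53, 5.82 and 6.18 on the OVA arrays and between 5.53 and 5.57 on the control arrays. Like Ccl11 it was highest on OVA replicate 3, and unlike Ccl11 lowest on replicate 1. Il33, an epithelial alarmin, had −0.85 (adjusted p = 0.0818) and Stat6 0.37 (adjusted p = 0.114). Their part in the values of the 10 genes was not tested.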

How the data were processed

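Per the labels' protocols, RNA was amplified, biotin-labelled and hybridised with 1 array for each sample. The table deposited by the authors holds log2 expression made with RMA, per the submitters' processing notes; RMA in general corrects background, normalizes quantiles over arrays and summarises probes; that the scale is log2 was read from the values, 1.63 to 13.8. No detection call or depth exists, so the number of arrays limits the precision. Of 35556 rows, 23410 had a gene symbol and were tested, 21789 of them with exactly 1 gene. The highest mean over the 9 arrays chose the probe set where a gene had several.

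limma 3.58.1 in R 4.3.3 fitted 1 mean per group to all 9 arrays (6 residual and 2.98 prior degrees of freedom), two-sided, with Benjamini-Hochberg adjustment over 23410 probe sets in each of 3 contrasts and a threshold of 0.05. The code of the fit was run on simulated data with known changes in the OVA group, drawn without shared array effects. No power to find the differences described here was derived from that run. The members and lists were chosen with earlier results of these data known. Beside the 10 genes, the text names other chemokines, receptors and inducers that passed, up to 3 further chemokines and receptors by p, Il4, Il5, Il13, Il33 and Stat6, up to 3 defining genes and the passing genes of cell marker lists, sex-linked genes and, for genes spanning over 1 on the log2 scale, the 3 nearest by centred values. Alternatives were quantile normalization, median centring, the upper 60% by mean, every row, only the compared groups, a replicate block, a variance trend, the mean of a gene's probe sets and leaving out each array. Same-numbered arrays of different groups were not treated as pairs.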

Additional observations from a re-analysis of the deposited data

How the results depend on the processing

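Among the 10 genes, the Ccl9 call in 4-week against control held under all 8 other settings and with each array left out, so the count stayed at 1. Its call in OVA against control was lost when every row was tested (adjusted p = 0.0518) and with the replicate block (0.0536), which leaves 0 of the 10, and in 5 of the 9 fits that leave out an array (range 0 to 1). In 4-week against OVA the count of 0 became 1, Ccl7, under median centring (adjusted p = 0.0493), the replicate block (0.0424) and the variance trend (0.0466), and ranged from 0 to 1 with an array left out. Same-numbered arrays deviated together at correlations of −0.04 to 0.33, over 0.1 in 5 of 9 pairs. Arrays with different numbers were not compared in this way, so these values do not decide whether the numbers mark pairs. The labels do not say what the numbers mark, and the block was therefore kept as an alternative. It gave 213, 1397 and 3271 probe sets. The 305 probe sets of OVA against control became 165 with every row, 109 with the compared groups only and 63 to 305 with an array left out. The 1481 of 4-week against OVA became 737 with the compared groups only and 446 to 1361 with an array left out, and the 3364 of 4-week against control 2054 and 1560 to 2966. The split of higher and lower calls was 183 and 122 in OVA against control (184 and 188 after quantile normalization, 219 and 94 in the upper 60%, 52 and 57 with the compared groups only). It was 893 and 588 in 4-week against OVA (1359 and 381 after median centring) and 1855 and 1509 in 4-week against control (2654 and 852). The cause was not tested. Median centring moved the median of all genes by at most 0.07. Differences near 0 changed sign without passing. After quantile normalization and median centring these were Ccr4 in 4-week against OVA (0.033 and 0.0031) and, in 4-week against control, Ccl24 (0.070 and 0.038), Ccl17 (0.012 and 0.042) and Ccr3 (0.071 and 0.026). With an array left out, the range crossed 0 in OVA against control for Ccl17 (−0.43 to 0.15), Ccr8 (−0.077 to 0.13) and Ccr4 (−0.15 to 0.019). In 4-week against OVA it did so for Ccl17 (−0.15 to 0.40), Ccl9 (−0.067 to 0.34), Ccr8 (−0.15 to 0.14) and Ccr4 (−0.16 to 0.014). For 4-week against control it did so for Ccl24 (−0.10 to 0.015), Ccl17 (−0.23 to 0.20), Ccl22 (−0.25 to 0.018), Ccr3 (−0.13 to 0.060), Ccl2 (−0.033 to 0.18) and Ccr8 (−0.11 to 0.18). Ccl3 passed in OVA against control among the upper 60% (adjusted p = 0.0454). With the compared groups only, calls in 4-week against control were also lost for Ccl25, Ccr10, Zbtb46, Kit, Mcpt8, Pecam1 and Gnal (limma adjusted p up to 0.0975).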
